A study of Mus musculus with 9 samples.

Results

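Gene expression in HC11 cells exposed to 660 nm light as the group EpPT1 (3 libraries) was compared with that in untreated HC11 cells of the group Ctrl (3 libraries). These are all libraries of both groups and 6 of the 9 libraries of the series. HC11 is a mouse mammary epithelial line, derived from cells of a pregnant BALB/c mouse, that can be induced to make milk proteins and carries mutant p53; the strain label, however, reads C57BL/6. The label of EpPT1 gives 10 J/cm2, but the protocol for the exposure has 0.5 and 1 J/cm2 at 10 mW without saying which group had which, so EpPT1 is named here without a dose. The title and the protocol speak of a laser and the design text of an LED. Cells of both groups grew in DMEM with 10% fetal bovine serum, and those exposed were in 12-well dishes, and no added insulin, epidermal growth factor or lactogenic hormone is named. How long after the exposure the cells were lysed is not stated in the labels. Whether the 3 libraries of each group are separate cultures is not stated, and the p-values here therefore reflect the spread between libraries alone, which may be technical. Of the 54532 genes in the count table, 14471 had enough counts to be tested.

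Red light is widely proposed to act on cells through cytochrome c oxidase, complex IV of the respiratory chain, whose core subunits are encoded by the mitochondrial genome and whose other subunits are nuclear. Downstream, a short burst of reactive oxygen species, calcium entry and signalling to transcription factors such as AP-1, NF-kappaB and NRF2 have been described for such light in other cells. Immediate early genes, which code for AP-1 subunits and Egr and Klf factors among others, and stress genes such as Hmox1 are transcribed within minutes to hours of such signals and decay again, so their levels depend on when cells are lysed.

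Total counts were 17228929, 16979227 and 14674704 in EpPT1 libraries 1 to 3 and 15867162, 16095370 and 14768299 in Ctrl libraries 1 to 3. Of the luminal markers, 10 of 17 were abundant enough to test, and the summed level of the whole list was 2900 to 3690 CPM in EpPT1 and 2350 to 3940 CPM in Ctrl. CPM here are counts scaled to the size of each library, so that libraries can be compared. The keratin gene Krt18 led this list, followed by Krt7 and Krt8 at similar levels. The E-cadherin gene Cdh1, a defining epithelial gene, however, had only 8, 4 and 4 counts in EpPT1 and 9, 10 and 4 counts in Ctrl, and Kit and Gata3 had 0 counts in all 6 libraries. Stromal markers summed to 1330 to 3690 CPM in EpPT1 and 2020 to 6030 CPM in Ctrl, nearly all from Dcn and Vim, with Thy1 at 0 throughout. The basal list summed to 157 to 169 CPM in EpPT1 and 135 to 207 CPM in Ctrl, mostly from Lgr5. The fat cell list summed to 250 to 417 CPM in EpPT1 and 313 to 372 CPM in Ctrl, nearly all from Lpl, with Lep at 0. The blood and immune list summed to 26.1 to 130 CPM in EpPT1 and 25.3 to 138 CPM in Ctrl, mostly from Cd68, with Adgre1 at 0, and the endothelial list to 5.09 to 21 CPM in EpPT1 and 4.65 to 20.7 CPM in Ctrl, mostly from Vwf, with Emcn at 0. The EpPT1 range and the Ctrl range overlapped for each of these 6 lists. The tested members of the lists had median log2 fold changes of −0.02 (luminal), 0.20 (basal, 5 genes), −0.13 (stroma, 5 genes), 0.02 (fat cell, 2 genes), −0.10 (blood and immune, 4 genes) and −0.36 (endothelium, 2 genes), and 0 were called. In bulk RNA, fewer cells of a type and less RNA per cell cannot be told apart. A count of 0 allows up to 3 counts, or 0.174 to 0.204 CPM in these libraries, which covers counting error only.

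The libraries of a group did not lie together. EpPT1 library 1 was closest to Ctrl library 2, with a median absolute difference of 0.23 on the log2 scale over the tested genes, against 0.44 from EpPT1 library 2 and 0.64 from EpPT1 library 3. EpPT1 library 2 was nearest to Ctrl libraries 1 and 2, at 0.42 from each, and EpPT1 library 3 to Ctrl library 3, at 0.46. Each EpPT1 library was thus nearer to an untreated library than to either of the other EpPT1 libraries. Counts on the mitochondrial genome made up 3.44%, 2.74% and 6.93% of EpPT1 libraries 1 to 3, against 2.86%, 3.62% and 7.48% of Ctrl libraries 1 to 3. Both libraries numbered 3 were therefore high in mitochondrial counts, 1 in each group. The mean share was 4.37 ± 2.24% in EpPT1 and 4.65 ± 2.48% in Ctrl (SD, n = 3 each; exact two-sided permutation test, p = 0.7, where 0.1 is the smallest p that 3 against 3 libraries allow). Leaving out a library turned the sign of this difference of −0.283 points for EpPT1 library 1 (0.182), EpPT1 library 2 (0.532) and Ctrl library 3 (1.13). The first principal component of the 6 libraries (52.3% of the variance) set both libraries numbered 3 apart from the rest. On the second (22.8%), EpPT1 libraries 2 and 3 lay below the untreated libraries, while EpPT1 library 1 lay among them.

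**Figure D1:**
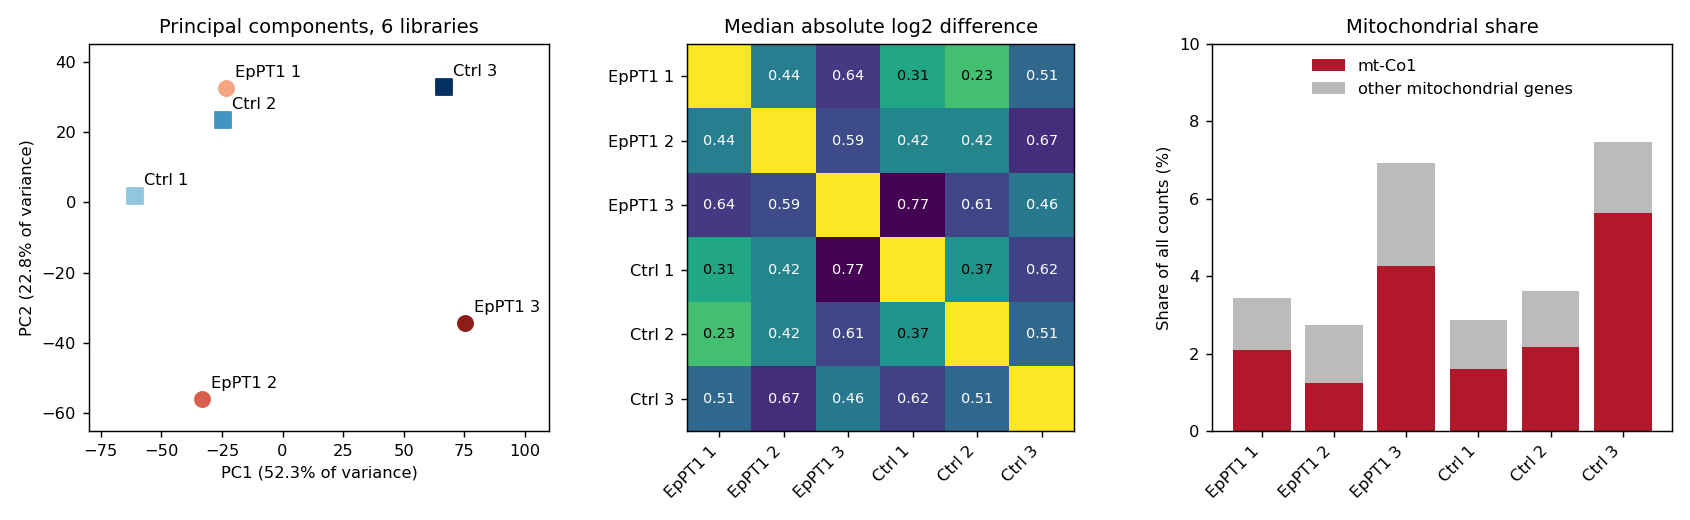
Left, the 6 libraries on the first 2 principal components of log2 CPM (circles EpPT1, squares Ctrl). Middle, the median absolute log2 difference between each pair of libraries over 14471 genes, from 0.23 (EpPT1 1 with Ctrl 2) upward. Right, the share of all counts (%) from mt-Co1 and from the other mitochondrial genes; the bars of EpPT1 3 and Ctrl 3 are the tallest of their groups.

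No gene passed the test of EpPT1 against Ctrl. With edgeR's quasi-likelihood test and Benjamini-Hochberg adjustment at 0.05, 0 of 14471 genes were called (0.0%), and the lowest adjusted p was 0.991. At an unadjusted p under 0.05 there were 567 genes, 434 higher and 133 lower in EpPT1. DESeq2 called 1 gene (736 at an unadjusted p under 0.05) and limma-voom called 0 (406). Replicates had a biological coefficient of variation of 39.3%, and log2 fold changes a median standard error of 0.37. For a single gene, before adjustment, 2 standard errors thus amounted to a 1.67-fold difference, and smaller differences were mostly not detectable. After adjustment larger differences went uncalled too, among them all 683 genes with a log2 fold change of at least 1 or at most −1. The count of 567 depended on which library was left out. It became 1971 without EpPT1 library 1, with a lowest adjusted p of 0.0721, and 233, 236 and 348 without EpPT1 library 2, EpPT1 library 3 and Ctrl library 1. Without Ctrl library 2 or 3 it changed less, to 662 and 612.

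In 761 genes (5.26% of those tested) the 3 EpPT1 libraries did not overlap with the 3 Ctrl libraries, 395 with EpPT1 higher (2.73%) and 366 with EpPT1 lower (2.53%). A random order of 3 against 3 libraries separates the groups, in either direction, with a probability of 0.1. The share of 5.26% lies below that, so a lack of overlap is only a description of a gene. Fewer libraries make such separation more frequent by construction, so counts with a library left out cannot be set directly against 761. There were 3809, 1258 and 1475 such genes without EpPT1 library 1, 2 or 3 and 1671, 2160 and 2236 without Ctrl library 1, 2 or 3. The count without EpPT1 library 1 was the highest of these. How far the smaller number of libraries accounts for it was not tested. The genes described first are the 12 with the smallest p in each direction among those that did not overlap and averaged at least 5 CPM. They were chosen by these values, so the values are a description, and all 24 had an adjusted p of 0.991 by edgeR's test.

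The 12 higher genes share a high GC content, and the 12 lower genes a low one. Transcript GC was 53.4% to 64.2% for the higher genes, all 12 above the median of 49.8% over tested genes, and 38.3% to 48.5% for the lower genes, 0 of 12 above it. As examples, the first 150 coding bases of 4 of them are given 5′ to 3′, with every G and C in capitals. The sequences are from the GENCODE M21 transcripts on GRCm38. The 4 genes were picked after their values were seen, as 2 GC-rich genes on the higher side and 2 GC-poor genes on the lower side. GC of the bases shown was 68.0% in Fbxl15, 64.7% in Zfp628, 46.0% in Pcmtd1 and 48.7% in Zfp52. Over the whole coding sequence GC was 67.2% in Fbxl15, 63.2% in Zfp628, 42.9% in Pcmtd1 and 38.5% in Zfp52. The stretch shown for Zfp52 is thus richer in GC than its whole coding sequence and close to the median of tested genes.
Fbxl15: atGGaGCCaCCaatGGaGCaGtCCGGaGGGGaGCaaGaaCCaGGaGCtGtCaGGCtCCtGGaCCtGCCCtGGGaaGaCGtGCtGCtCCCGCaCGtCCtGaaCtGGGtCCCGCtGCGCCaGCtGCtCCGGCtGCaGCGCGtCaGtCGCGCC
Zfp628: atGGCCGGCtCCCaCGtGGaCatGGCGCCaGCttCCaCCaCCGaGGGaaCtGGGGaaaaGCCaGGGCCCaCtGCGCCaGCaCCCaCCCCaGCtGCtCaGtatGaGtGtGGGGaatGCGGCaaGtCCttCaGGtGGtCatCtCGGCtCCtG
Pcmtd1: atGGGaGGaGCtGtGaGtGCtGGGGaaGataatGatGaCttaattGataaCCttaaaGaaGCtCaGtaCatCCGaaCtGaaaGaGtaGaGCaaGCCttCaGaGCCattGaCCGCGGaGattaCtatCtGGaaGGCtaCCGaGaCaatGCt
Zfp52: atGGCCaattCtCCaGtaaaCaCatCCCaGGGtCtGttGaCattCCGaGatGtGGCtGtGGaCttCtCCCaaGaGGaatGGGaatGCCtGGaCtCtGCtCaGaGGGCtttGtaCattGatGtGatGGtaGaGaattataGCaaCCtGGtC

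Fbxl15 (ENSMUSG00000025226, chromosome 19, 46328184 to 46330446, plus strand, GRCm38), which codes for an F-box protein of a ubiquitin ligase, had 4.5, 12.2 and 10.2 CPM in EpPT1 libraries 1 to 3, against 2.23, 3.94 and 2.02 CPM in Ctrl libraries 1 to 3. EpPT1 library 1 lay just above the highest untreated library and the other EpPT1 libraries far above it. The log2 fold change was 1.70 (SE 0.43). Fbxl15 overlaps the far more abundant Cuedc2 on the opposite strand, and since the strand setting of the counting is not given, reads of the 2 genes cannot be told apart. Zfp628 (ENSMUSG00000074406, chromosome 7, 4915217 to 4922002, plus strand), a zinc finger gene, had 13.7, 27.5 and 31.4 CPM in EpPT1 and 10.0, 10.6 and 8.47 CPM in Ctrl, a log2 fold change of 1.31 (SE 0.32) with the smallest p of this set, 0.00188 unadjusted. Again EpPT1 library 1 stood little above the untreated libraries.

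In Slc25a25, alone among the 12, library 1 was not the lowest EpPT1 library. Slc25a25 (ENSMUSG00000026819, chromosome 2, 32414487 to 32451445, minus strand), a calcium-regulated carrier of ATP-Mg and phosphate in the inner mitochondrial membrane, had 48.0, 59.4 and 41.1 CPM in EpPT1, against 30.6, 22.3 and 29.5 CPM in Ctrl. Ppp1r10 (chromosome 17, 35916434 to 35932283, plus strand), which codes for the nuclear targeting subunit PNUTS of protein phosphatase 1, had 61.0, 101 and 77.6 CPM in EpPT1, against 32.2, 47.7 and 51.1 CPM in Ctrl. In Ppp1r10 library 1 lay between Ctrl and the other EpPT1 libraries. The log2 fold changes were 0.85 (SE 0.23) and 0.87 (SE 0.25). These genes had the lowest GC content of the higher set, at 53.8% and 53.4%. After a correction for GC content their differences in mean log2 CPM, which are not fitted values, were 0.66 and 0.71. The pair was singled out after these values were seen.

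The other higher genes have varied roles. Taf1c, a subunit of the selectivity factor of RNA polymerase I, had 7.61, 17.3 and 22.7 CPM in EpPT1 and 6.51, 4.96 and 5.7 CPM in Ctrl. Tarbp2, the partner of Dicer in small RNA processing, had 23.3, 35.7 and 47.1 CPM in EpPT1 and 17.2, 17.8 and 17.9 CPM in Ctrl. Pkmyt1, the kinase that holds Cdk1 inactive before mitosis, had 27.7, 60.1 and 97.9 CPM in EpPT1 and 21.5, 23.5 and 26.7 CPM in Ctrl. In these 3 genes the EpPT1 libraries ran in the order 1, 2, 3 from low to high, with library 1 just above Ctrl. Atf6b, a membrane-bound factor related to the stress sensor Atf6, had 19.3, 44.9 and 37.5 CPM in EpPT1 and 16.9, 17.6 and 11.1 CPM in Ctrl. Rce1, the protease that trims farnesylated proteins such as Ras, had 15.2, 25 and 29.2 CPM in EpPT1 and 10.2, 12.5 and 11.8 CPM in Ctrl. The remaining 3, Aldh16a1, Armc5 and Rhbdd3, had log2 fold changes of 1.32, 1.10 and 1.62, and Aldh16a1 and Rhbdd3 overlap more abundant genes (Pih1d1 and Ewsr1) on the opposite strand.

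The 12 lower genes had smaller differences, with log2 fold changes of −1.06 to −0.51. Sec23a, which codes for the inner COPII coat of vesicles leaving the endoplasmic reticulum, had 55.3, 51.3 and 48.1 CPM in EpPT1, against 91.8, 57.9 and 172 CPM in Ctrl, a log2 fold change of −1.06 (SE 0.34). Its EpPT1 values lay close together and the spread was in Ctrl, where library 3 was highest. Zfp52 (ENSMUSG00000051341, chromosome 17, 21535539 to 21562601, plus strand), a zinc finger gene, had 14.9, 9.56 and 9.21 CPM in EpPT1 and 17.7, 22.5 and 25 CPM in Ctrl. Pcmtd1 (ENSMUSG00000051285, chromosome 1, 7088920 to 7173628, plus strand), whose product is related to the enzymes that repair aged aspartate residues, had 53.7, 36.1 and 31.7 CPM in EpPT1 and 64.4, 69.1 and 62.5 CPM in Ctrl. In both genes EpPT1 library 1 lay nearest to Ctrl.

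Brwd3, a bromodomain and WD repeat gene, had 17.1, 17.5 and 12.0 CPM in EpPT1 and 25.7, 24.2 and 25.9 CPM in Ctrl. H2-Q1, a class I histocompatibility gene, had 83.4, 84.6 and 78.6 CPM in EpPT1 and 114, 124 and 114 CPM in Ctrl. These genes had narrow ranges in both groups, and EpPT1 library 1 was as low as library 2. H2-Q1 belongs to a family of near-identical genes, so its counts are uncertain. Bmpr2, the type II receptor for bone morphogenetic proteins, had 136, 94.7 and 105 CPM in EpPT1 and 183, 151 and 176 CPM in Ctrl. Trp53inp1, a p53-induced gene of stress and autophagy, had 72.8, 90.2 and 50.0 CPM in EpPT1 and 130, 110 and 109 CPM in Ctrl. Pdcd4, an inhibitor of translation initiation, had 29.1, 34.7 and 21.2 CPM in EpPT1 and 49.3, 38.0 and 54.7 CPM in Ctrl. The remaining 4 genes were Cep170 (−0.65), Ttc3 (−0.77), Slc33a1 (−0.67) and Vwa5a (−0.60). Besides the genes named so far, Armc5, Slc25a25, Pkmyt1, Brwd3, Ttc3 and Pdcd4, and further below Junb, Gm23935, Rpl23a, Cox4i1, Nfkb2 and Tk1, also overlap a gene on the opposite strand, so the same limit holds for them. It holds as well for Mt2, Rps28, Rps27rt, Got2-ps1 and mt-Nd5, which overlaps mt-Nd6.

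**Figure D2:**
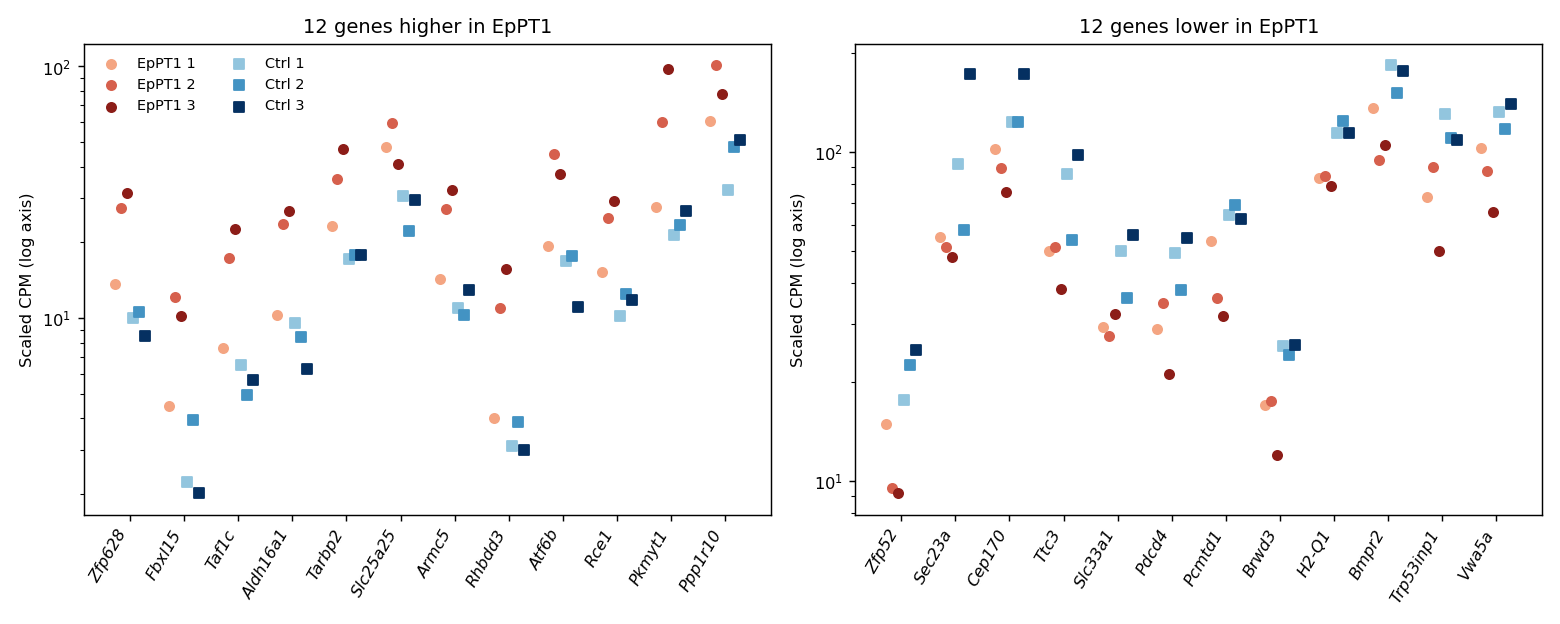
Scaled CPM (log axis) of the 12 genes with EpPT1 higher (left) and the 12 with EpPT1 lower (right), ordered by p from left to right, in each EpPT1 library (circles) and each Ctrl library (squares). The groups do not overlap in any of them, by choice; on the left EpPT1 1 (lightest circle) mostly lies next to the squares.

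The difference between EpPT1 and Ctrl followed GC content over the whole table. Across tested genes, which are not independent replicates, the log2 fold change had a Spearman correlation of 0.61 with transcript GC. Among the 10033 genes with a promoter sequence from RefSeq, it was 0.66 with transcript GC and 0.03 with the GC of the promoter. With gene length it was −0.16. In 5 equal groups of genes from low to high GC the median log2 fold change was −0.30, −0.17, −0.03, 0.15 and 0.41. Of the 395 genes with EpPT1 higher and apart, 178 lay in the highest GC group and 15 in the lowest, and of the 366 with EpPT1 lower and apart, 7 lay in the highest and 184 in the lowest.

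This trend was present in 2 of the 3 EpPT1 libraries. Against the mean of the Ctrl libraries, the medians of the lowest and the highest GC group were 0.01 and −0.08 for EpPT1 library 1, −0.37 and 0.52 for library 2, and −0.50 and 0.77 for library 3. Each Ctrl library against the other 2 gave 0.18 and −0.31 for library 1, −0.11 and 0.19 for library 2, and −0.07 and 0.11 for library 3. The slope on GC was taken of log2 CPM less each gene's mean over all libraries of the series, so its sign is relative to that mean. It was −0.379, 0.197 and 0.387 per 10 points of GC in EpPT1 libraries 1 to 3, against −0.522, −0.237 and −0.250 in Ctrl. EpPT1 libraries 2 and 3 thus had slopes above that mean and EpPT1 library 1 a slope within the range of Ctrl. The means were 0.0683 ± 0.399 in EpPT1 and −0.336 ± 0.161 in Ctrl (SD, n = 3 each; exact two-sided permutation test, p = 0.3, smallest possible 0.1). After a correction for GC in each library, 600 genes (4.15%) did not overlap, and 349 of the 761 genes did so the same way before and after. All 24 genes described above kept their sign, and 8 of the 12 higher and 6 of the 12 lower genes still did not overlap. Whether the GC trend accounts for any single difference was not tested.

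**Figure D3:**
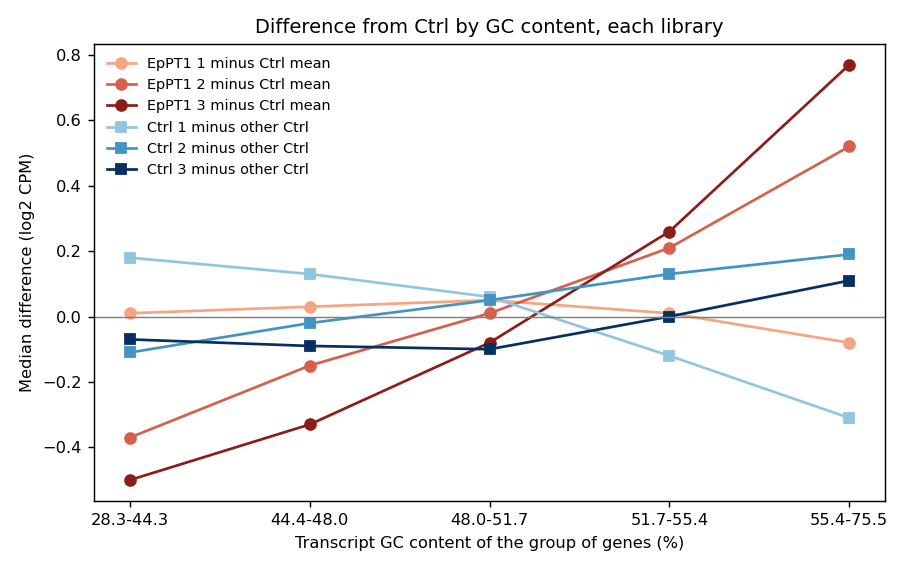
Median difference in log2 CPM of each library within 5 equal groups of genes by transcript GC content (%), for EpPT1 libraries against the mean of the 3 Ctrl libraries (circles) and for each Ctrl library against the other 2 (squares). The lines of EpPT1 2 and EpPT1 3 climb from −0.37 and −0.50 to 0.52 and 0.77, while that of EpPT1 1 stays between −0.08 and 0.05.

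Taken singly, the 3 EpPT1 libraries differed from Ctrl to different extents. EpPT1 library 1 was over 2-fold from the mean of the Ctrl libraries in 799 genes (5.52%), 246 higher and 553 lower. The count was 1933 (13.4%; 1142 higher and 791 lower) for library 2 and 3210 (22.2%; 2054 higher and 1156 lower) for library 3. A Ctrl library against the mean of the other 2 gave 2535 (17.5%), 1519 (10.5%) and 3469 (24.0%) for libraries 1 to 3. The numbers for EpPT1 libraries 2 and 3 lay within that range, and that for library 1 lay below it; the untreated libraries were set against a mean of 2 and the exposed ones against a mean of 3.

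EpPT1 library 1 was the highest of the 6 libraries by over 2-fold in 7 genes and the lowest in 100. These numbers were 75 and 64 for EpPT1 library 2, 242 and 101 for EpPT1 library 3, and 20 and 163, 9 and 65, and 174 and 190 for Ctrl libraries 1, 2 and 3. The levels of the genes that follow, picked for the largest gap at a mean of at least 20 CPM, are a description. Fos, a core AP-1 subunit, had 7.38 CPM in EpPT1 library 1, against 74.8 and 297 CPM in EpPT1 libraries 2 and 3 and 47.8, 19.9 and 161 CPM in Ctrl. Bgn, a matrix proteoglycan gene, had 2.77, 79.7 and 21.6 CPM in EpPT1 and 73.9, 6.39 and 17.2 CPM in Ctrl. Both genes were lowest in EpPT1 library 1 and varied widely within Ctrl as well. Sarnp, highest there, had 132, 66.0 and 29.3 CPM in EpPT1 and 44.2, 80.7 and 34.6 CPM in Ctrl, but it overlaps the more abundant Dnajc14 on the same strand and Ormdl2 on the opposite one, so its counts are uncertain. Sumo2, among the lowest, had 18.8, 84.8 and 61.5 CPM in EpPT1 and 76.3, 41.6 and 69.1 CPM in Ctrl.

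EpPT1 library 2 was the highest of the 6 libraries for Btg2 and Pim3. Btg2, an antiproliferative early gene, had 21.7, 99.3 and 21.4 CPM in EpPT1 and 28.9, 33.5 and 17.2 CPM in Ctrl. Pim3, a serine/threonine kinase gene, had 11.6, 61.6 and 19.2 CPM in EpPT1 and 21, 20.5 and 8.62 CPM in Ctrl. Only library 2 was high in either gene. It was the lowest for Dcn, with 2090, 732 and 1810 CPM in EpPT1 and 1290, 2140 and 3280 CPM in Ctrl, and for the lipopolysaccharide co-receptor gene Ly96, with 23.4, 6.73 and 23.2 CPM in EpPT1 and 12.9, 14.5 and 55.9 CPM in Ctrl. EpPT1 library 3 was highest for the tight junction gene Cldn3, with 148, 221 and 616 CPM in EpPT1 and 79.3, 176 and 213 CPM in Ctrl, and for Adamtsl5, with 145, 131 and 514 CPM in EpPT1 and 71.3, 135 and 147 CPM in Ctrl. It was lowest for Hmgcs1, an enzyme of cholesterol synthesis, with 95.6, 109 and 30.7 CPM in EpPT1 and 183, 84.7 and 81.3 CPM in Ctrl.

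Because both groups held 1 library with a high mitochondrial share, the comparison was also made within each level of it. EpPT1 libraries 1 and 2 against Ctrl libraries 1 and 2 differed over 2-fold in 491 genes, and EpPT1 library 3 against Ctrl library 3 in 2241. Of the 491 genes, 343 had the same sign in the library 3 difference, 164 of them by over 2-fold, while 36 were over 2-fold the other way. Over all genes 67.8% had the same sign. Pearson's r between the 2 differences, which share no library, was 0.38 across genes, or 0.20 after correction for GC. A mean over libraries 1 and 2 does not show how single libraries agreed. Against the mean of the Ctrl libraries, 36 genes were over 2-fold higher and 6 lower in all 3 EpPT1 libraries. In EpPT1 libraries 2 and 3 but not 1, there were 392 higher and 94 lower. Another 216 were over 2-fold in opposite ways in EpPT1 libraries 2 and 3.

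Without a filter on low counts, edgeR called 32 genes, 30 higher and 2 lower in EpPT1, and 31 of these were among the genes tested with the filter, where 0 were called. In 29 of the 32, EpPT1 libraries 2 and 3 both lay above every Ctrl library, whereas EpPT1 library 1 lay within the Ctrl range in 21. Their median GC was 59.8%, and 25 of the 29 genes with a known GC lay above the median of all tested genes. The strongest was Gm23935, annotated as a microRNA gene, with 3.98, 187 and 596 CPM in EpPT1 and 4.09, 20.9 and 24.5 CPM in Ctrl. CT010467.1, annotated as ribosomal RNA, had 54.3, 203 and 378 CPM in EpPT1 and 42.4, 72.7 and 76.9 CPM in Ctrl. The long noncoding RNA gene Gm26917 had 37.4, 184 and 367 CPM in EpPT1 and 31.4, 57.5 and 58.8 CPM in Ctrl. In these 3 genes EpPT1 library 1 was at the level of the untreated libraries, and EpPT1 library 3 was highest. Lars2, the mitochondrial leucyl-tRNA synthetase gene, followed the same order with 47.6, 102 and 271 CPM in EpPT1 and 44.4, 47.1 and 57.0 CPM in Ctrl. On chromosome 17 Gm26917 (39843013 to 39846341) lies directly beside CT010467.1 (39846353 to 39848827). Whether reads of ribosomal RNA add to the counts of Gm26917, Gm23935 or Lars2 was not tested, so their levels are uncertain.

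A ribosomal protein gene and copies of such genes also stood among these calls. Rpl23a, a protein of the large ribosomal subunit, had 79.3, 465 and 415 CPM in EpPT1 and 57.9, 85.7 and 96.4 CPM in Ctrl, a log2 fold change of 2.00 (SE 0.53). The pseudogene Rpl7a-ps5 had 6.51, 42.6 and 26.6 CPM in EpPT1 and 6.63, 9.55 and 10.1 CPM in Ctrl, while the retrogene Rps27rt had 107, 54.2 and 59.3 CPM in EpPT1 and 160, 221 and 213 CPM in Ctrl. Whether these genes share reads with near-identical copies was not tested, so their levels are uncertain. Got2-ps1, a pseudogene of the mitochondrial aspartate aminotransferase, was the 1 gene called by DESeq2 (adjusted p = 0.0498), with 0.231, 1.19 and 0.415 CPM in EpPT1 and 6.44, 7.94 and 2.62 CPM in Ctrl, and it too is a copy of another gene. Gm18194, another pseudogene, had 43.3, 25.7 and 10.9 CPM in EpPT1 and 5.7, 0.896 and 5.4 CPM in Ctrl. In Got2-ps1 and Gm18194 all 3 EpPT1 libraries, library 1 included, lay outside the Ctrl range. Gm14632, called without the filter but too low to test with it, had 657, 1 and 4 counts in EpPT1 and 17, 6 and 5 counts in Ctrl, so its call rested on EpPT1 library 1 alone.

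Immediate early genes had the highest median of the 34 lists, close to that of the 5 milk protein genes described last. Of 24 tested members of 26, 18 had a positive and 6 a negative log2 fold change, with a median of 0.60 against −0.02 over all tested genes, and 0 were called. The list's median over genes of log2 CPM, each gene centred on its mean over the 6 libraries, was −0.42, 0.59 and 0.60 in EpPT1 libraries 1 to 3. In Ctrl it was −0.72, −0.49 and 0.59. Ctrl library 3 was thus as high as EpPT1 libraries 2 and 3, and EpPT1 library 1 lay with the low untreated libraries. The AP-1 gene Junb had 81.8, 324 and 450 CPM in EpPT1 and 80.5, 103 and 157 CPM in Ctrl, a log2 fold change of 1.33 (SE 0.51). Jund had 30.9, 161 and 149 CPM in EpPT1 and 24.5, 47.1 and 65.5 CPM in Ctrl, and Ier5, an early gene that acts on heat shock factor 1, had 104, 290 and 220 CPM in EpPT1 and 98.6, 112 and 127 CPM in Ctrl. In all 3 genes EpPT1 libraries 2 and 3 exceeded every untreated library and EpPT1 library 1 did not. After the correction for GC, the differences in mean log2 CPM were 0.41, 0.19 and 0.64. These are not fitted values, so they cannot be set directly against the fitted log2 fold change.

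In other early genes the libraries numbered 3 went apart from the rest. Fos, whose levels are given above, and Egr1, with 82.2, 219 and 440 CPM in EpPT1 and 108, 126 and 327 CPM in Ctrl, were highest in library 3 of both groups. Their log2 fold changes were 0.73 (SE 1.07) and 0.40 (SE 0.64), and both became negative without EpPT1 library 3 (−0.89 and −0.31). Atf3, Nr4a1 and Nr4a2 were picked after their values were seen, because libraries 1 and 2 and libraries 3 went opposite ways. Atf3, an early and stress-induced factor, had 222, 354 and 151 CPM in EpPT1 and 115, 123 and 944 CPM in Ctrl. The nuclear receptor gene Nr4a1 had 44.0, 102 and 30.7 CPM in EpPT1 and 13.3, 13.3 and 56.3 CPM in Ctrl, and Nr4a2 had 8.01, 14.2 and 7.41 CPM in EpPT1 and 1.3, 1.49 and 12.3 CPM in Ctrl. In each, EpPT1 libraries 1 and 2 exceeded Ctrl libraries 1 and 2, and EpPT1 library 3 was below Ctrl library 3. For Nr4a2 the log2 differences were 2.83 and −0.72. The feedback genes of ERK and MAPK signalling had 12 positive and 5 negative members of 17 and a median of 0.20, or −0.04 without EpPT1 library 2, with the phosphatase gene Dusp8 at 1.07 (SE 0.50) and the ERK inhibitor Spred2 at −0.40 (SE 0.21).

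**Figure D4:**
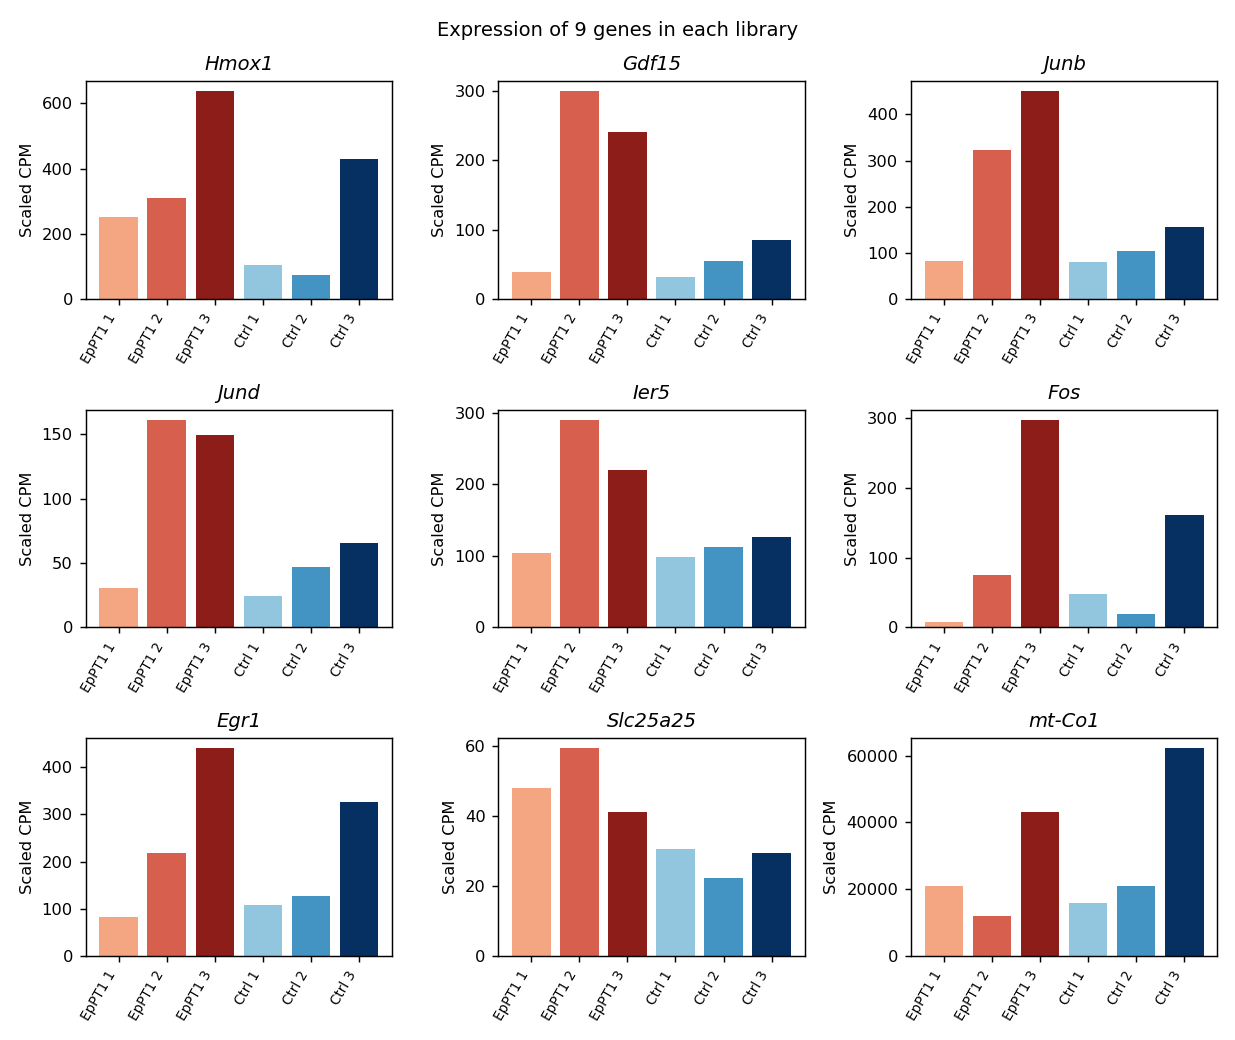
Scaled CPM of 9 genes in EpPT1 libraries 1 to 3 (left bars) and Ctrl libraries 1 to 3 (right bars). Junb, Jund, Ier5 and Gdf15 are high in EpPT1 2 and EpPT1 3 but not in EpPT1 1, Fos, Egr1, Hmox1 and mt-Co1 are high in library 3 of both groups, and Slc25a25 is above Ctrl in all 3 EpPT1 libraries.

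Stress genes gave a mixed picture. The integrated stress response list, which gathers targets of the factor Atf4, had 20 positive and 4 negative members of 24, a median of 0.24 and 0 calls. Its top member Gdf15, a secreted stress cytokine, had 39.1, 299 and 240 CPM in EpPT1 and 31.2, 54.8 and 84.7 CPM in Ctrl, a log2 fold change of 1.76 (SE 0.61) with an unadjusted p of 0.0158. EpPT1 library 1 lay within the Ctrl range. Chac1, which degrades glutathione, had 1.21, 2.26 and 3.11 CPM in EpPT1 and 0.558, 0.537 and 1.12 CPM in Ctrl, without overlap but at low counts. Hmox1 (ENSMUSG00000005413, chromosome 8, 75093621 to 75100589, plus strand), the haem oxygenase that NRF2 induces, had 252, 310 and 637 CPM in EpPT1 and 105, 72.1 and 431 CPM in Ctrl. Each EpPT1 library was above the Ctrl library of the same mitochondrial level, but Ctrl library 3 exceeded EpPT1 libraries 1 and 2. The fitted log2 fold change was 0.98 (SE 0.62; unadjusted p = 0.145); within libraries 1 and 2 the difference was 1.68, and for library 3 it was 0.57. Of 35 tested members of the list of NRF2 targets and oxidant defence genes, 22 were positive and 13 negative, with a median of 0.06; Pgd of the pentose phosphate pathway had 141, 178 and 178 CPM in EpPT1 and 108, 132 and 114 CPM in Ctrl, without overlap (log2 fold change 0.49, SE 0.19), and the metallothionein gene Mt2 was at −1.38 (SE 0.64).

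Chaperone genes lay slightly below 0. Endoplasmic reticulum folding genes had 5 positive and 16 negative members of 21 and a median of −0.24, but this rested on Ctrl library 3, without which the median was 0.19. Dnajb9, a cochaperone induced by unfolded protein, had 43.2, 32.7 and 67.4 CPM in EpPT1 and 44.5, 29.9 and 239 CPM in Ctrl, and its log2 fold change was −1.13 (SE 0.71), or 0.36 without that library. Heat shock chaperones had 5 positive and 12 negative members of 17 and a median of −0.14, from 0.03 within libraries 1 and 2 to −0.51 for library 3. Targets of p53 and apoptosis genes had 12 positive and 24 negative members of 36 and a median of −0.19. Among them were the kinase gene Plk3, with 21.3, 47.6 and 37.4 CPM in EpPT1 and 17.2, 17.3 and 20.8 CPM in Ctrl, and the proapoptotic gene Bbc3, with 5.82, 19.0 and 22.0 CPM in EpPT1 and 3.28, 6.69 and 6.97 CPM in Ctrl. The p53 target Cdkn1a, an inhibitor of the cell cycle, had 199, 280 and 173 CPM in EpPT1 and 144, 218 and 226 CPM in Ctrl, with overlapping groups.

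For the mitochondrial genome, which codes for the core of complex IV, the direction depended on the correction for GC content and on single libraries. Of its 13 protein genes 5 had positive and 8 negative log2 fold changes, with a median of −0.04 and 0 calls. After the correction for GC, 12 of the 13, whose transcript GC is only 31.9% to 41.1%, had positive log2 differences, and the fitted median was 0.33, again with 0 calls. Without Ctrl library 3 the uncorrected median was 0.49, and without EpPT1 library 3 it was −0.33. Without EpPT1 library 1 or 2 it was 0.12 or 0.20. mt-Co1 (chromosome MT, 5328 to 6872), the catalytic subunit of cytochrome c oxidase, had 20900, 11900 and 43200 CPM in EpPT1, against 15800, 20800 and 62200 CPM in Ctrl. It made up 61.1%, 45.4% and 61.4% of mitochondrial counts in EpPT1 and 56.3%, 59.8% and 75.1% in Ctrl. The mt-Co1 level was highest in library 3 of both groups, with Ctrl library 3 above EpPT1 library 3. Its log2 fold change was −0.38 (SE 0.61), and 0.47 without Ctrl library 3. Without mt-Co1 the mitochondrial share averaged 1.83 ± 0.728% in EpPT1 and 1.52 ± 0.311% in Ctrl (SD, n = 3 each; exact two-sided permutation test, p = 0.6).

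The other mitochondrial genes are given as levels. mt-Cytb of complex III had 2440, 3470 and 4700 CPM in EpPT1 and 2270, 2590 and 2060 CPM in Ctrl, and its unadjusted p of 0.0328 was the smallest of the 13. mt-Nd1 of complex I had 3600, 4050 and 8750 CPM in EpPT1 and 3160, 3610 and 5110 CPM in Ctrl. mt-Nd5 had 1830, 1530 and 2990 CPM in EpPT1 and 1520, 1930 and 2890 CPM in Ctrl. Of these genes mt-Cytb was high in EpPT1 libraries 2 and 3 only, and mt-Nd5 was high in library 3 of both groups. mt-Co2, also of complex IV, had 39.8, 126 and 87.4 CPM in EpPT1 and 33.0, 46.9 and 78.5 CPM in Ctrl, far below mt-Co1. mt-Co2, mt-Co3, mt-Atp6 and mt-Nd3 share 99.5%, 99.9%, 99.5% and 98.1% of their 25-base words with a copy on nuclear chromosome 1 that has its own counts, so their levels are uncertain. mt-Atp8 was below 2.2 CPM and mt-Nd4l below 4.9 CPM in all 6 libraries.

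The list of nuclear cytochrome c oxidase genes had 6 positive and 7 negative members of 13 and a median of −0.01. Among the negative members, Cycs at −0.04, is cytochrome c, the substrate of the enzyme and not a subunit. The list's median was 0.20 after the correction for GC, 0.16 without both libraries numbered 3, and 0.23 and 0.11 without EpPT1 or Ctrl library 3. Cox4i1 had 614, 535 and 633 CPM in EpPT1 and 513, 615 and 686 CPM in Ctrl, with overlapping groups. Cox8a had 120, 239 and 200 CPM in EpPT1 and 91.2, 146 and 101 CPM in Ctrl, and Cox6a1 had 199, 445 and 776 CPM in EpPT1 and 159, 278 and 300 CPM in Ctrl. In Cox8a and Cox6a1 EpPT1 libraries 2 and 3 were above every untreated library, and their GC content was 58.6% and 60.9%. Subunits of complexes I and II had 29 positive and 12 negative members of 41 and a median of 0.15, led by Ndufa12, with 9.45, 25.9 and 21.9 CPM in EpPT1 and 6.01, 8.48 and 6.6 CPM in Ctrl. Subunits of complexes III and V had 16 positive and 8 negative members of 24 and a median of 0.13, with Cyc1, the cytochrome c1 gene, at 68.1, 131 and 100 CPM in EpPT1 and 67.0, 62.5 and 53.2 CPM in Ctrl. Regulators of mitochondrial biogenesis and dynamics had 8 positive and 15 negative members of 23 and a median of −0.09, while mitochondrial ribosomal proteins had 48 positive and 29 negative members of 77 and a median of 0.11. In the biogenesis list 1 member was higher and 1 lower without overlap (4.35% each), against 2.73% and 2.53% of all tested genes. The higher was Nrf1, a regulator of nuclear genes for respiration, with 48.8, 42.7 and 60.8 CPM in EpPT1 and 36.6, 37.5 and 36.0 CPM in Ctrl. The lower was Tfb1m, with 5.48, 5.37 and 2.15 CPM in EpPT1 and 8.92, 6.33 and 6.45 CPM in Ctrl. Their log2 fold changes were 0.47 (SE 0.20) and −0.74 (SE 0.46).

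**Figure D5:**
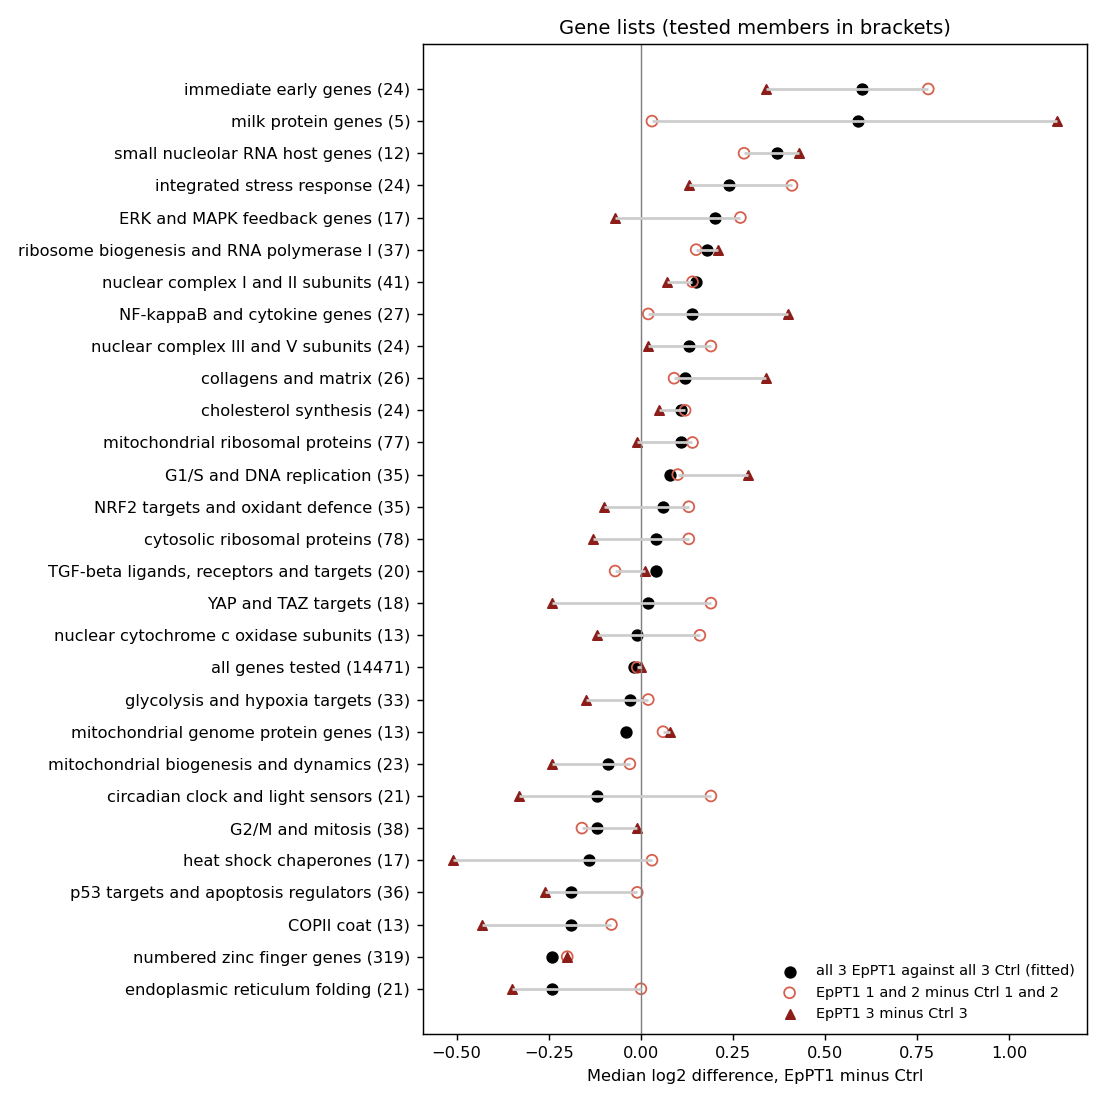
Median log2 difference, EpPT1 minus Ctrl, of each gene list (tested members in brackets) and of all tested genes: fitted over all 3 libraries of each group (filled circles), within libraries 1 and 2 (open circles) and for library 3 (triangles). Immediate early genes have the highest fitted median, 0.60, and the fitted median of all genes is −0.02; for many lists the open circle and the triangle lie on opposite sides of 0.

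NF-kappaB genes differed little as a list, with 17 positive and 10 negative members of 27 and a median of 0.14. Rela, the p65 subunit, had 95.8, 144 and 165 CPM in EpPT1 and 64.4, 92.5 and 71.6 CPM in Ctrl, without overlap. Its fitted log2 fold change was 0.82 (SE 0.24), and its difference in mean log2 CPM after correction for GC was 0.37. Nfkb2 was at 0.68 (SE 0.24). TGF-beta genes had 10 positive and 10 negative members of 20 and a median of 0.04, or 0.35 and −0.14 without EpPT1 library 1 or 2, with the TGF-beta and BMP target Id2 at 73.0, 171 and 110 CPM in EpPT1 and 294, 127 and 193 CPM in Ctrl. The YAP and TAZ target list had 10 positive and 8 negative members of 18 and a median of 0.02, or −0.19 after correction for GC, and collagens and matrix genes had 18 positive and 8 negative of 26 and a median of 0.12. Clock and light-sensing genes had 7 positive and 14 negative members of 21 and a median of −0.12, which turned positive in libraries under 5% mitochondrial counts (0.22), without both libraries numbered 3 (0.20) and without Ctrl library 3 alone (0.17). Per1, a clock gene that also responds to acute signals, had 15.5, 42.0 and 32.5 CPM in EpPT1 and 14.1, 16.7 and 15.7 CPM in Ctrl, again high in EpPT1 libraries 2 and 3 only. The opsin gene Opn1sw had 0.864, 0.452 and 0.485 CPM in EpPT1 and 1.05, 1.02 and 2.32 CPM in Ctrl, but it lies against the abundant Calu on the opposite strand, so these few counts cannot be assigned.

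Cell cycle lists did not separate the groups. Genes of G1/S and DNA replication had 21 positive and 14 negative members of 35 and a median of 0.08, and those of G2/M and mitosis had 14 positive and 24 negative of 38 and a median of −0.12. The proliferation marker Mki67 had 852, 566 and 1120 CPM in EpPT1 and 780, 667 and 946 CPM in Ctrl. The centred median of G2/M genes was 0.28, −0.08 and −0.41 in EpPT1 and 0.30, 0.24 and −0.42 in Ctrl, so that both libraries numbered 3 were lowest. E2f1 and Tk1 were at 0.55 (SE 0.26) and 0.43 (SE 0.24). Ribosome biogenesis and RNA polymerase I genes had 25 positive and 12 negative members of 37 and a median of 0.18, with Taf1c at the top. Cytosolic ribosomal protein genes had 43 positive and 35 negative members of 78 and a median of 0.04, so the high Rpl23a and Rps28 (1.07, SE 0.40) were not typical of them. Host genes of small nucleolar RNAs had 9 positive and 3 negative members of 12 and a median of 0.37, with Snhg12 at 17.3, 20.6 and 44.4 CPM in EpPT1 and 14.4, 12.8 and 20.9 CPM in Ctrl.

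Metabolic, secretory and zinc finger lists lay near or below 0. Cholesterol synthesis had 14 positive and 10 negative members of 24 and a median log2 fold change of 0.11. Its centred median over genes of −0.05, 0.53 and −0.40 in EpPT1 and 0.55, −0.18 and −0.50 in Ctrl spread alike in both groups. Glycolysis and hypoxia targets had 12 positive and 21 negative members of 33 and a median of −0.03. COPII coat genes had 1 positive and 12 negative members of 13 and a median of −0.19, which was −0.08 within libraries 1 and 2 and −0.43 for library 3. Besides Sec23a, the cargo adaptor gene Sec24a had 96.0, 51.5 and 111 CPM in EpPT1 and 93.2, 86.7 and 392 CPM in Ctrl, so that Ctrl library 3 was far above the rest. Numbered zinc finger genes, many of which code for transcriptional repressors, had 99 positive and 220 negative members of 319 and a median of −0.24, or −0.08 after correction for GC. Of these, 6 (1.88%) were higher and 30 (9.40%) lower in EpPT1 without overlap, against 2.73% and 2.53% of all tested genes.

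Of the 12 milk protein genes 5 were tested, all 5 with positive log2 fold changes and a median of 0.59, which was 0.03 within libraries 1 and 2. Mfge8, a protein of milk fat globules, had 227, 253 and 703 CPM in EpPT1 and 148, 272 and 320 CPM in Ctrl, a log2 fold change of 0.67 (SE 0.52) that became −0.04 without EpPT1 library 3. The casein gene Csn3 had 30.0, 23.7 and 98.3 CPM in EpPT1 and 22.9, 28.2 and 95.1 CPM in Ctrl, high in library 3 of both groups. The casein gene Csn2 and the whey protein gene Wap had 0 counts in all 6 libraries.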

How the data were processed

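RNA-seq libraries of HC11 cells were analysed from the table of raw counts per gene that the authors deposited, with a column for each library. Bowtie 0.12.2 and the build mm8 are named per the submitters' processing notes. The table's coordinates, however, match GENCODE M21 (GRCm38): 54495 gene IDs were found there and 53585 of them (98.3%) had the same start and end, so coordinates here are GRCm38. Neither the counter nor its strand setting is named in these sources. A column of gene length, another deposited value, served only for a correlation with length.

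Groups were taken from the titles. In R 4.3.3, edgeR 4.0.16 (TMM scaling, filterByExpr, 1 unblocked fit over the 9 libraries with 6 residual degrees of freedom, two-sided quasi-likelihood test, Benjamini-Hochberg adjustment at 0.05) tested 14471 of the 28724 genes with a count. Standard errors were derived from the fold change and its F statistic. CPM are TMM-scaled and log2 CPM used a prior count of 2. GC content was that of the pooled GENCODE M21 transcripts of a gene (13 tested genes had none); promoter GC came from RefSeq's GRCm38 promoter table. The GC correction removed a spline with 5 degrees of freedom per library. The tests were tested on simulated data.

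The comparison, the 34 gene lists and the rules for named genes were chosen with earlier results of these data known. Named genes are the 12 per direction with the smallest p, a mean of at least 5 CPM and no overlap, without predicted genes and pseudogenes; the 2 members per list with the smallest p; a fixed set (Hmox1, Fos, Egr1, Cdkn1a, Mki67, Per1, mt-Co1, Cox4i1, Krt8); up to 4 genes per direction that set each EpPT1 library apart at a mean of at least 20 CPM; the mitochondrial protein genes; genes called under an alternative; and the leading member of each marker list. Not all of these are described. Genes named only as markers, as mitochondrial genes or for single libraries are given as levels, a choice made after their differences were seen. Some of their log2 fold changes lay near 0, such as Lgr5 (−0.06) and mt-Nd2 (−0.06). Others did not, such as Lemd2 (1.22), Adamtsl5 (1.16) and mt-Atp6 (−0.61). Precision is set by the spread between libraries rather than by depth; floors cover counting error only. Alternatives were DESeq2 1.42.0 and limma-voom (limma 3.58.1), other scalings and filters, corrections, blocks and libraries left out.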

Additional observations from a re-analysis of the deposited data

How the results depend on the processing

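Called genes stayed at 0 under all alternatives but 2: 32 without the filter on low counts, where the spread is estimated over many more genes, and 1 by DESeq2. Genes at an unadjusted p under 0.05 (567) numbered 1148 without the filter, 272 with only EpPT1 and Ctrl libraries, 242 after GC correction, 1975 and 1063 with the mitochondrial share as covariate, without and with GC correction, 159 in libraries under 5% mitochondrial counts, 171 without both libraries numbered 3, and 233 to 1971 when a library was left out. Non-overlapping genes (761) numbered 507 with a filter of 5 CPM, 3048 without both libraries numbered 3 and 1258 to 3809 when a library was left out, where fewer libraries overlap less. With the replicate number as a block, 947 genes had an unadjusted p under 0.05 and 354 with the GC correction as well, and 0 were called. Same-numbered libraries had deviations correlated at 0.15, 0.06 and 0.73, and EpPT1 libraries 1 and 2 correlated best with another number, so the numbers were not taken to pair the libraries. The mitochondrial difference ranged from −1.56 to 1.13 points over left-out libraries, and the GC slope difference from 0.245 to 0.628.

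Of 2211 recomputed fold changes of 111 named genes, 31 turned sign, in 10 genes. Some of these genes had fitted log2 fold changes near 0, such as Cox4i1 (−0.03) and Krt8 (0.03). Others did not, such as Dnajb9 (−1.13), Fos (0.73), Mfge8 (0.67) and Btn1a1 (0.59). The cause was not tested. In libraries under 5% mitochondrial counts, without both libraries numbered 3, and over left-out libraries, the log2 values were −0.10, −0.11 and −0.06 to 1.02 for Btn1a1, 0.03, 0.02 and −0.13 to 0.07 for Cox4i1, 0.04, 0.03 and −1.57 to 0.36 for Dnajb9, and −0.02, −0.03 and −0.17 to 0.32 for Mki67. After GC correction Cdkn1a was at −0.00 (−0.04 with the block, −0.07 with the mitochondrial covariate) and Krt8 at −0.25 (−0.31 and −0.31). With block and GC correction Egr1 was at −0.05, Fos at −0.20 and mt-Co1 at 0.04 (0.12 with covariate and GC correction). Over left-out libraries the ranges were −0.06 to 0.29 for Cdkn1a, −0.12 to 0.15 for Krt8, −0.31 to 1.08 for Egr1, −0.89 to 1.90 for Fos, −1.01 to 0.47 for mt-Co1 and −0.04 to 0.96 for Mfge8.

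Of 679 recomputed list medians 30 moved beyond the spread between libraries. Under 5% mitochondrial counts and without both libraries numbered 3, they were 0.22 and 0.20 for the clock list, −0.03 and −0.03 for p53 targets, 0.17 and 0.16 for nuclear cytochrome c oxidase, and 0.00 and −0.00 for mitochondrial biogenesis; milk protein genes were at −0.10 without both. After GC correction, with block and GC correction, and with covariate and GC correction, nuclear cytochrome c oxidase was at 0.20, 0.15 and 0.11, and zinc finger genes at −0.08, −0.07 and −0.08. YAP and TAZ targets were at −0.19 after GC correction, ERK feedback genes at −0.09 and −0.15 with the block or covariate added, and cytosolic ribosomal proteins at −0.08 with the covariate. Over left-out libraries the medians ranged from −0.04 to 0.25 for ERK feedback, −0.14 to 0.35 for TGF-beta, −0.17 to 0.19 for YAP and TAZ, −0.33 to 0.19 for endoplasmic reticulum folding, −0.13 to 0.01 for mitochondrial biogenesis, −0.05 to 0.23 for nuclear cytochrome c oxidase and −0.19 to −0.06 for p53 targets.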
